A study of Mus musculus with 3 samples.

Results

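The genes described here are 10 genes of antigen presentation by MHC class II and of costimulation: Cd74, H2-Aa, H2-Ab1, H2-Eb1, H2-DMa, H2-DMb1, H2-DMb2, Ciita, Cd83 and Cd86. Their probes were taken by gene name, whatever their values, but the genes were chosen with earlier results of these data known. The genes are 10 of 34827 gene and transcript names on the array. Each was read by 1 probe, except H2-Ab1 and H2-DMb1 with 2 probes, so that 12 probes were followed. RNA came from HoxA9-Meis1 AML cells, a mouse acute myeloid leukaemia line of C57Bl/6 origin from whole bone marrow, named for the homeobox factors Hoxa9 and Meis1. For 24 h the cells were kept untreated, given 3.4 µM of a compound called Pyrydopyrazine A2, or given all-trans retinoic acid and the vitamin D derivative 1α-hydroxy-D3 (RA plus D3V), 10 µM of each. The labels do not say whether the line is 1 clone or how it was made. Each condition had 1 one-colour array, so no value has a replicate, no test across samples was possible, and all differences are between single arrays.

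MHC class II molecules are pairs of an alpha and a beta chain that present peptides taken up from outside the cell to CD4 T cells. The invariant chain Cd74 guides new pairs to endosomes and blocks their groove, lysosomal proteases cut it down, and H2-DM exchanges its last fragment for a peptide. Ciita is the coactivator that switches these genes on through the X and Y boxes of their promoters. A T cell also needs costimulation, given by Cd86 on the presenting cell, while Cd83 marks activated dendritic and B cells and keeps class II and Cd86 at the surface. In the bone marrow these genes mark B cells, dendritic cells and monocytes.

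On the arrays, 46.02% to 46.77% of 59305 non-control spots were well above background and none was saturated. Levels are given as the log2 of the processed signal relative to the array's 75th percentile, so that 0 is the 75th percentile of the array, and levels of different probes are not compared. Spots of the same probe on 1 array had an SD of 0.0606 to 0.0703 (median over probes, log2 scale). The arrays lay on 1 slide. Among markers of the labelled cell type, Mpo, Elane, Ctsg, Prtn3, Kit, Cd34 and Hoxa9 were well above background on every array, and the single Meis1 probe on none.

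The sources name the treated arrays in conflicting ways. The authors' deposited value table has a column labelled RA plus D3V that ranks all spots as the A2 scanner file does (Spearman 1), while the column labelled A2 ranks them as the RA plus D3V scanner file does. Cyp24a1, the vitamin D hydroxylase, was well above background only in the A2 scanner file (6.07, against -6.34 untreated and -5.85 on the other), as was the retinoic acid hydroxylase Cyp26a1 (2.11, against -6.04 and -5.91). In the value table Cyp24a1 is 20792 in the column labelled RA plus D3V and 6.91 in that labelled A2. Below, A2 array and RA+D3V array are names taken from the scanner files alone, so an array's name may not be the compound it received. By the value table's labels, the array with Cyp24a1 and Cyp26a1 well above background is the one given RA plus D3V. Which set of labels is right was not tested. The control column of that table was not the same as any scanner array (Spearman 0.936 with the untreated one). It gives a second set of untreated values of unknown origin, and the SD of the difference between both control sources was 0.483 on the log2 scale over 18261 genes. With the genes cut by signal into 3 bins of 6087, the SD was 0.174 in the brightest bin and 0.750 in the dimmest. The untreated scanner array was at least 2-fold above that control for 2.12% of genes, H2-DMb2 among them as the 1 such member, and at least 2-fold below it for 0.356%.

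Against the untreated array, 4 of 9 measured members were at least 2-fold lower on the A2 array (H2-DMa, H2-DMb2, Cd83 and Cd86) and none was at least 2-fold higher. Of all 17292 genes tested in this way, 6.47% passed 2-fold downwards and 7.92% upwards. The median log2 difference of the members was -0.78, beside -0.03 for all genes. On the RA+D3V array, Cd74 was the 1 member at least 2-fold higher and H2-DMb2 the 1 at least 2-fold lower, beside 7.82% and 5.04% of all genes, and the median was -0.19, beside -0.03. A gene counts as measured when its brightest probe is well above background on both arrays. Ciita did not meet this on any pair. After normexp background correction with an offset of 50, an alternative that draws dim signals together, 2 of 9 members were at least 2-fold lower on the A2 array (H2-DMa and Cd83), beside 4.17% of all genes. Then 0 were lower on the RA+D3V array, beside 3.07%, and Cd74 was still higher (1.29).

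**Figure D1:**
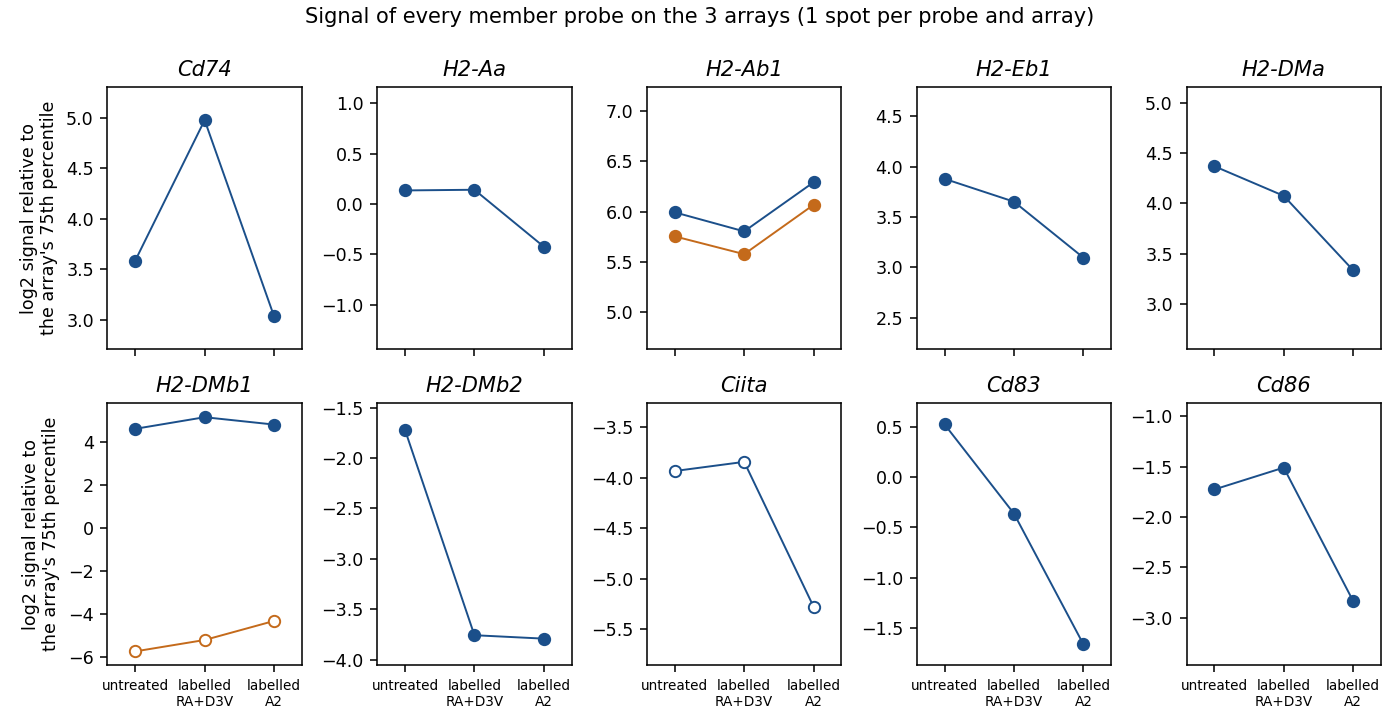
Log2 signal relative to the array's 75th percentile (y axis, own scale in each panel) of every member probe on the 3 arrays (x axis, named by scanner label). Blue is the brightest probe of a gene and orange a second probe, filled points are well above background and open points are not, and lines join 1 probe. Cd74 peaks on the RA+D3V array at 4.98, and Cd83 is lowest on the A2 array at -1.66.

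Cd74, the invariant chain, had the widest gap between the treated arrays of the 9 measured members. Its probe (chromosome 18, 60972075 to 60972132, mm9) had a level of 3.59 on the untreated array, 4.98 on the RA+D3V array and 3.03 on the A2 array. It was thus highest on the RA+D3V array, 2.63-fold above untreated (log2 difference 1.39), and lowest on the A2 array (-0.55, within 2-fold). Between the treated arrays it was 3.86-fold lower on the A2 array (-1.95), a difference below which 0.612% of 17643 genes lay. The error that the scanner software assigns to a spot gives a standard error of 0.20 for each of these differences. It covers the spots alone. Against the value table's control the differences were 1.74 and -0.26, so the increase of at least 2-fold was present with both control sources.

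The chains of the classical class II molecules lay within 2-fold of untreated on both treated arrays. For the alpha chain gene H2-Aa (probe at chromosome 17, 34421285 to 34421344) the level was 0.14 on the untreated array, 0.14 on the RA+D3V array and -0.42 on the A2 array. The untreated array and the RA+D3V array were thus level, and the A2 array lower by 0.56. The beta chain gene H2-Eb1 (34453075 to 34453134) had levels of 3.88, 3.65 and 3.10 in the same order, and on the A2 array it was 1.72-fold below untreated (-0.78). H2-Ab1, the beta chain that pairs with H2-Aa, went the other way. Its brighter probe (34406296 to 34406355) had levels of 5.99, 5.80 and 6.29 in that order, highest on the A2 array (difference 0.30). Its other probe overlaps the first and gave 5.75, 5.58 and 6.07 (difference 0.31). The pairing genes H2-Aa and H2-Ab1 therefore had differences of opposite sign on the A2 array, each with a software standard error of 0.20 to 0.21. Against the value table's control they kept those signs, at -0.44 and 0.31, while H2-Eb1 had -0.67.

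Promoters of class II members are shown because Ciita acts through the X and Y boxes of class II promoters. Of the members, 5 are in the RefSeq promoter table for GRCm38.p6, a later build than the probe positions: H2-Aa, H2-Eb1, H2-DMa, H2-DMb1 and H2-DMb2. The 150 bases before the start are given for 4 of them, along the gene's strand. Capitals mark GATTGG, the letters of the Y box core (CCAATC when read on the other strand), GATGATGC, letters found in the X box region, and TGACGTCA, letters of a cAMP response element. The motifs were chosen after the sequences had been read. No 2 of the matches overlap.
H2-Aa, chr17:34287824-34287973, minus strand: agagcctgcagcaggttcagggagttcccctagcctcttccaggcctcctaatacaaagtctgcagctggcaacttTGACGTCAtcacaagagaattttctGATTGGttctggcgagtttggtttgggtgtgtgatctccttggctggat
H2-Eb1, chr17:34305717-34305866, plus strand: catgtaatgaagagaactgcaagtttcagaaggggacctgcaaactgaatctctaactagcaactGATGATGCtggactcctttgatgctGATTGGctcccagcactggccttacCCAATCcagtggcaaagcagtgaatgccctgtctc
H2-DMb1, chr17:34153041-34153190, plus strand: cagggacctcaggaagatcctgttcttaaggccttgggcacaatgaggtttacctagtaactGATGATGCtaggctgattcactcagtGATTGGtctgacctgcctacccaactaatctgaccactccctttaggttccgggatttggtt
H2-DMb2, chr17:34145099-34145248, plus strand: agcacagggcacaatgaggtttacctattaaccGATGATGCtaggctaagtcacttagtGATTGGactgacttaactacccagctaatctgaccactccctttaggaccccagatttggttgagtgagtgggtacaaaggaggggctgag

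The windows shown are those with a match, and the motifs were chosen on these sequences, so the shares below are no test of enrichment. GATTGG was in all 4 of these windows, on either strand in 10.9% of 32475 promoter windows of the same length. GATGATGC was in those of H2-Eb1, H2-DMb1 and H2-DMb2, and in 0.345% of all windows. Both together were in 0.04% of windows (13). TGACGTCA was in the window of H2-Aa and in 1.37% of all. The first GATTGG followed the other motif after 17 bases in H2-Aa and H2-Eb1 and after 18 bases in H2-DMb1 and H2-DMb2. None of these letters was in either window of H2-DMa, which has 2 starts in the table. The upstream sequences of H2-DMb1 and H2-DMb2 were identical at 85.1% of 121 alignment columns, with gaps counted as columns. That of H2-Eb1 matched H2-DMb1 at 59.4% of 160. Other pairs ranged from 51.7% (H2-Aa with H2-Eb1) to 57.1% (H2-Eb1 with H2-DMa), apart from H2-Aa with H2-DMb2 (72.7% of 11 columns). These matches are a description of the sequence, and no binding was measured.

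The genes of the peptide exchange factor H2-DM differed from each other. H2-DMa, its alpha chain (a probe with positions from 34274300 to 34274863), had a level of 4.37 on the untreated array, 4.08 on the RA+D3V array and 3.34 on the A2 array. It was 2.05-fold below untreated on the A2 array (-1.03, software standard error 0.20), just past the 2-fold line. With the value table's control the difference was -0.87, inside it. The beta chain gene H2-DMb1 (34297109 to 34297168) had levels of 4.62, 5.16 and 4.81 in the same order, and all differences were within 2-fold (0.54 on the RA+D3V array, 0.20 on the A2 array). A second H2-DMb1 probe, designed on another transcript (34290109 to 34290168), did not pass the background flag on any array.

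H2-DMb2, the neighbouring copy of the beta chain gene, had a level of -1.72 on the untreated array, -3.76 on the RA+D3V array and -3.79 on the A2 array (probe at 34284764 to 34284823). The untreated array was high and the treated arrays were alike. Treated levels were 4.11-fold and 4.20-fold below untreated, with log2 differences of -2.04 and -2.07 and software standard errors of 0.36 and 0.33. This decrease rested on the untreated scanner array alone. Against the value table's control, H2-DMb2 differed by 0.10 and 0.27, and the control sources themselves lay 2.13 apart on this probe. After normexp the differences from untreated were -0.65 and -0.74, inside 2-fold. On the treated arrays its processed signal was 21.5 and 19.8, close to the smallest signal that passed the background flag there (18.4 and 15.0). H2-DMb1 and H2-DMb2 are close copies, and cross-hybridization between them was not tested.

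**Figure D2:**
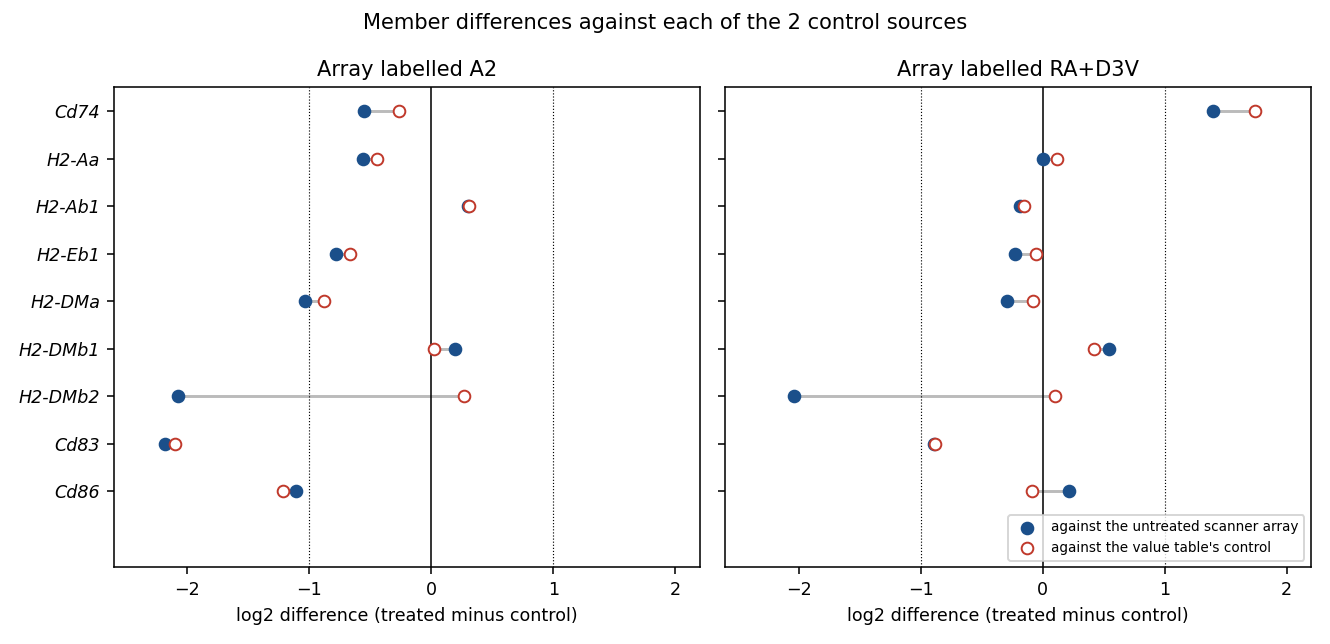
Log2 difference (x axis) of the 9 measured members (y axis) on the A2 array (left) and the RA+D3V array (right), against the untreated scanner array (filled) and the value table's control (open). Dotted lines mark 2-fold. H2-DMb2 moves from -2.07 and -2.04 to 0.27 and 0.10 with the other control, Cd83 on the A2 array stays at -2.18 and -2.10.

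Ciita, the coactivator of class II transcription, did not pass the background flag on any array (probe at chromosome 16, 10526568 to 10526627). Its processed signal was 23.5 on the untreated array, 20.3 on the RA+D3V array and 7.06 on the A2 array. With errors of 5.82, 5.37 and 4.05 from the software it has no measured fold. The probe reads 1 stretch of the transcript only. Cd74, H2-Ab1, H2-Eb1, H2-DMa and H2-DMb1 were well above background on the same arrays.

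Both costimulation members were lower on the A2 array. Cd83 (chromosome 13, 43898276 to 43898335) had a level of 0.52 on the untreated array, -0.36 on the RA+D3V array and -1.66 on the A2 array. The order was untreated, RA plus D3V, A2, and the A2 array was 4.55-fold below untreated (-2.18, software standard error 0.21). Of 17292 genes, 0.613% had a lower difference. On the RA+D3V array, Cd83 was 1.85-fold below untreated (-0.89), inside the 2-fold line, and between the treated arrays it was 2.46-fold lower on the A2 array (-1.30). The value table's control gave -2.10 and -0.88, so neither value crossed the 2-fold line with the other control source. After normexp Cd83 differed from untreated by -1.65 on the A2 array, and the difference between the treated arrays was -0.92, inside 2-fold.

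Cd86, the ligand of Cd28 on T cells, had a level of -1.73 on the untreated array, -1.51 on the RA+D3V array and -2.83 on the A2 array (chromosome 16, 36603961 to 36604020). Only the A2 array stood apart, 2.15-fold below untreated (-1.11, software standard error 0.24) and 2.50-fold below the RA+D3V array (-1.32). Against the value table's control it differed by -1.21 and -0.09. Its processed signal of 38.4 on the A2 array is dim. After normexp the difference from untreated was -0.47 and that between the treated arrays -0.68, both inside 2-fold. None of the 12 member probes holds a run of more than 4 alternating G and T bases.

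Between the treated arrays, 3 of 9 members were at least 2-fold lower on the A2 array (Cd74, Cd83 and Cd86) and none was at least 2-fold higher, beside 4.05% and 3.78% of 17643 genes. After normexp 1 of the 3 was still past 2-fold, Cd74 (-1.92), with Cd83 at -0.92 and Cd86 at -0.68, beside 1.89% of all genes. H2-DMb2 was level between them (-0.03). H2-Ab1 was the 1 member above 0 (0.49). In all, 8 of 9 members were below 0 in this comparison, with a median of -0.57 beside -0.02 for all genes. This comparison uses neither control source. Both comparisons against untreated share the untreated array. With the value table's control, 2 of 9 members were at least 2-fold lower on the A2 array (Cd83 and Cd86), beside 6.32% of all genes. On the RA+D3V array 1 was at least 2-fold higher (Cd74), beside 7.04%, and 0 were at least 2-fold lower, beside 4.95%. None was at least 2-fold higher on the A2 array with that control, beside 7.59%.

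**Figure D3:**
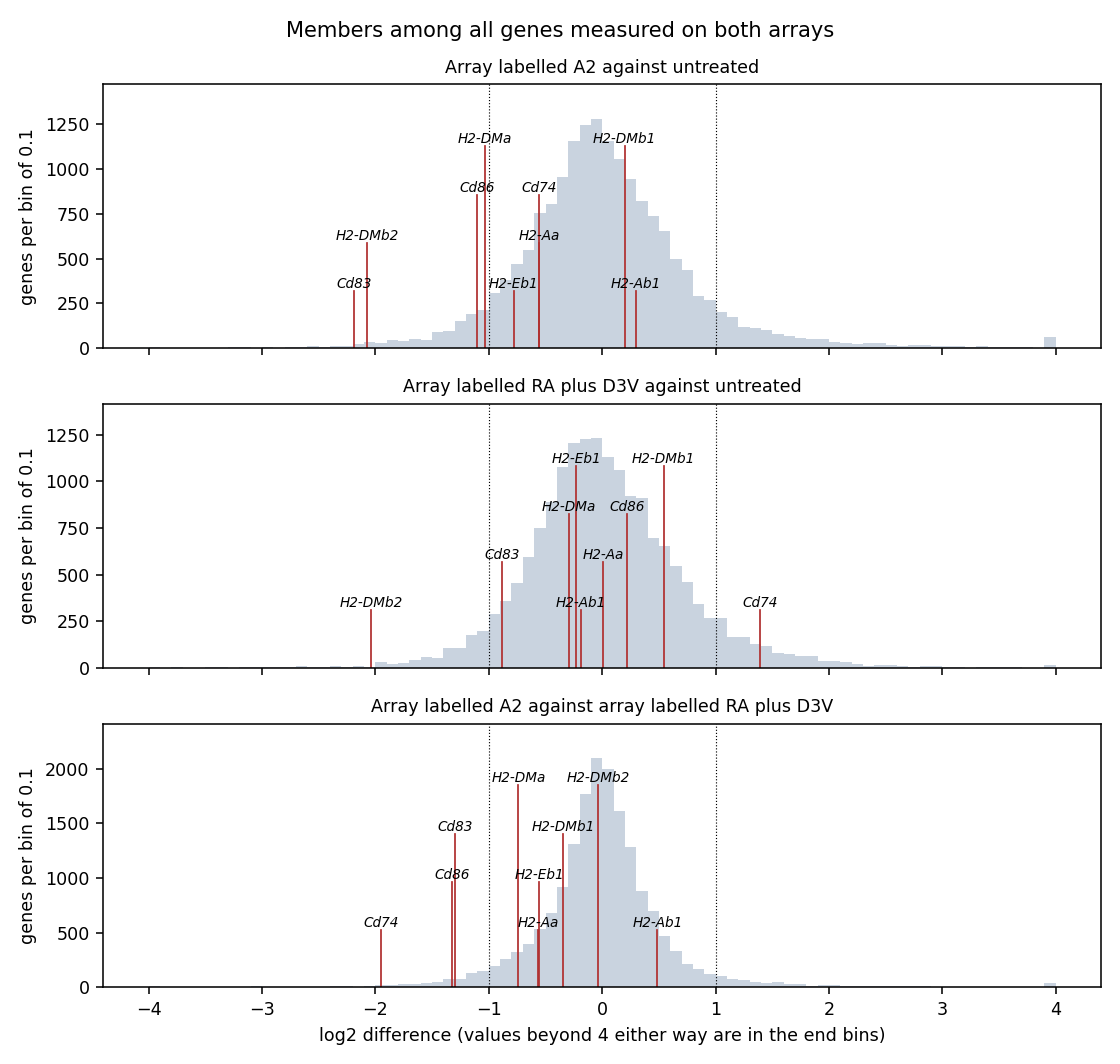
Number of genes (y axis) by log2 difference (x axis, bins of 0.1) for the 3 comparisons, with the 9 measured members marked by red lines whose height has no meaning. Dotted lines mark 2-fold. Cd83 and H2-DMb2 lie in the lower tail of the first panel at -2.18 and -2.07, and Cd74 lies at 1.39 in the second and -1.95 in the third.

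Of 4 other class II genes on the array, 2 were measured. On the A2 array 1 of them was at least 2-fold higher, beside 7.92% of all genes. H2-Oa, the alpha chain of the inhibitor of H2-DM, had a level of 2.71 on the untreated array, 2.54 on the RA+D3V array and 3.92 on the A2 array, higher on the last by 1.21 (1.14 with the value table's control). H2-Ob, its beta chain, lay within 2-fold on both treated arrays (0.33 and 0.19). H2-Eb2 passed the background flag on the A2 array alone, and the pseudogene H2-Ea-ps on none. C57BL/6 mice lack a working alpha chain for H2-Eb1.

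Most genes that cut or handle class II cargo were higher on the A2 array. Of 10 measured genes of antigen processing, 8 passed 2-fold upwards on it and 0 downwards (median 1.48), beside 7.92% and 6.47% of all genes. Of the same 10, 4 passed upwards and 0 downwards on the RA+D3V array (median 0.72), beside 7.82% and 5.04%. Legumain, Lgmn, an asparaginyl protease, had a level of 1.72 on the untreated array, 4.91 on the RA+D3V array and 5.44 on the A2 array (3.18 and 3.71 above untreated). Cathepsin D, Ctsd, was 1.68 and 2.88 above untreated, and the thiol reductase Ifi30 1.37 and 1.45. Cathepsin S, Ctss, which trims the invariant chain, differed by 0.77 and 1.30, past 2-fold on the A2 array. Cathepsin L, Ctsl (0.58 and 1.27), cathepsin B, Ctsb (0.36 and 2.10), and cathepsin H, Ctsh (0.67 and 1.51), had the same pattern.

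March1, a ubiquitin ligase that removes class II and Cd86 from the surface, had a level of -0.33 on the untreated array, 2.75 on the RA+D3V array and 1.44 on the A2 array, and was 3.08 and 1.77 above untreated. Its second probe gave 0.66 and 0.68, within 2-fold of the untreated array, and 1.22 and 1.20 against the value table's control. Cystatin C, Cst3, a cathepsin inhibitor, lay within 2-fold (0.20 and -0.40). Against the value table's control the counts in this list were also 8 and 4.

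Regulators of class II transcription were mostly within 2-fold. Of 14 measured on the A2 array, 3 passed 2-fold upwards and 0 downwards (median 0.19), beside 7.92% and 6.47% of all genes. The 3 were Rfxank, a subunit of the X box factor RFX (1.38), Irf8 (1.19) and Irf1 (1.12), interferon regulatory factors. Irf1 was inside 2-fold with the value table's control (0.93). On the RA+D3V array 0 of 13 passed 2-fold in either direction (median -0.03), beside 7.82% of all genes upwards and 5.04% downwards. The NF-Y subunit genes, whose product binds the Y box, had differences of -0.76 (Nfya), -0.74 (Nfyb) and -0.66 (Nfyc) on the A2 array. They had -0.47, -0.92 and -0.89 on the RA+D3V array. Rfx5 was well above background on the RA+D3V array only.

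In the interferon gamma pathway, which induces Ciita in many cells, 2 of 9 measured genes passed 2-fold upwards on the A2 array and 2 downwards. The shares of all genes were 7.92% and 6.47%. The receptor Ifngr1 (1.85) and Irf1 were the higher genes of the pathway, Cxcl10 (-3.75) and Gbp3 (-1.08) the lower ones. With the value table's control Irf1 was inside 2-fold (0.93). Cxcl10 alone passed 2-fold on the RA+D3V array (-2.63), beside 5.04% of all genes downwards and 7.82% upwards. Cxcl9 was well above background on the untreated array alone.

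Other ligands of T cell costimulation and inhibition split. On the A2 array, 3 of 10 measured were at least 2-fold higher, the ligand Tnfsf9 (2.85), Cd24a (1.77) and the inhibitory ligand Cd274 (1.76), and 1 was lower, Icosl (-1.33). Of the same 10, 3 were higher on the RA+D3V array, Tnfsf9 (3.31), Tnfsf14 (1.75) and Cd80 (1.25), and 1 was lower, Cd40 (-1.40). Among all genes, 7.92% and 6.47% passed 2-fold upwards and downwards on the A2 array, and 7.82% and 5.04% on the RA+D3V array. Cd80, the other ligand of Cd28, thus stood higher on the array on which Cd86 differed by 0.22, and by 0.24 on the A2 array, on which Cd86 was lower. Its second, dimmer probe gave 0.21 and 0.55. Cd40, the receptor that licenses presenting cells, was 2.03 higher on the A2 array than on the RA+D3V array. Of the list, 5 genes, Tnfsf4, Tnfsf18, Cd70, Cd276 and Vtcn1, were not well above background on any array.

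Class I presentation genes lay within 2-fold. Of 13 measured, 0 passed 2-fold on either treated array, with medians of 0.03 and -0.20. Among all genes, 7.92% passed upwards and 6.47% downwards on the A2 array, and 7.82% and 5.04% on the RA+D3V array. The extremes of this list were the peptidase Erap1 (-0.71) and tapasin, Tapbp (0.47), on the A2 array. On the RA+D3V array they were the transporter gene Tap1 (-0.63) and calreticulin, Calr (0.78).

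**Figure D4:**
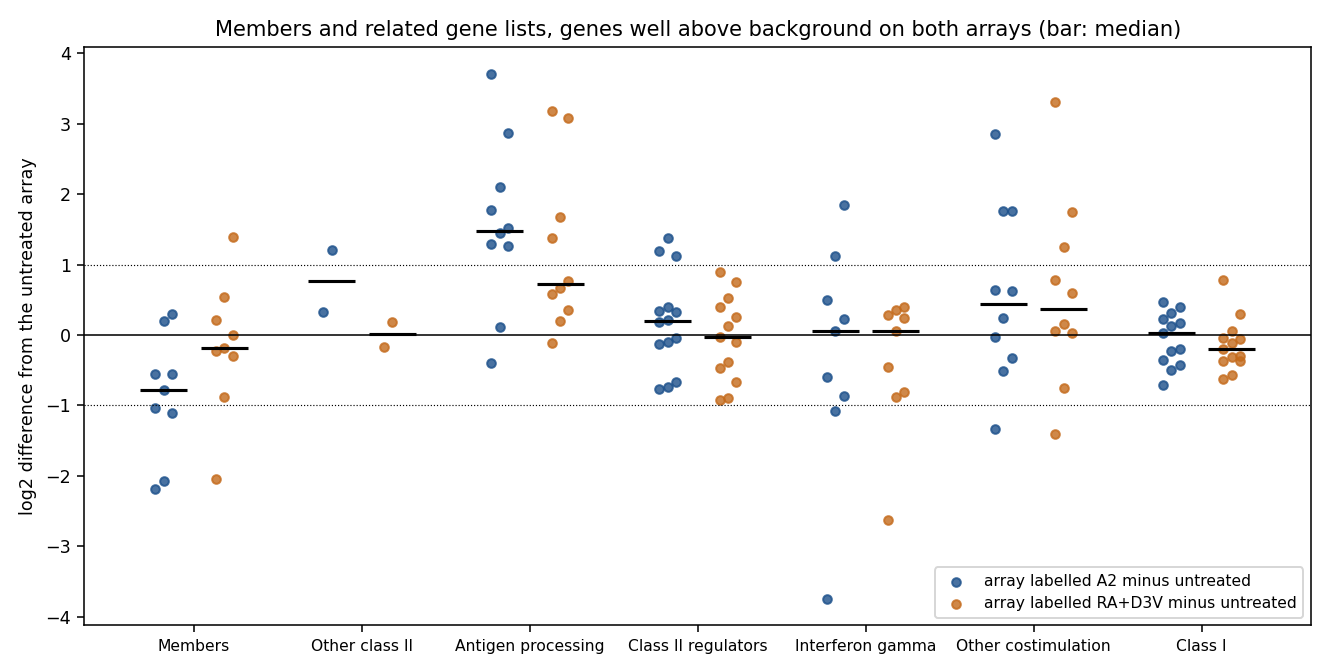
Log2 difference from the untreated array (y axis) of each gene well above background on both arrays, by list (x axis), for the A2 array (blue) and the RA+D3V array (orange). Black bars are medians and dotted lines mark 2-fold. Antigen processing genes have medians of 1.48 and 0.72, the members -0.78 and -0.19.

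In bulk RNA, fewer cells of a type and less RNA per cell cannot be told apart, and class II genes are read from any presenting cell in the culture. Of 8 B cell markers, 5 were well above background on each array, with Pax5, Ebf1 and Blk on none. None of the 5 passed 2-fold on the A2 array, and Cd22 was higher on the RA+D3V array (1.04). Their summed level, in units of the array's 75th percentile, was 19.2 untreated, 13.1 on the RA+D3V array and 19.0 on the A2 array. Cd79b makes up most of this sum, and its difference on the RA+D3V array was -0.64, while Cd79a (0.08) and Ms4a1 (0.18) lay above 0 there.

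Of 11 dendritic cell markers, 6, 7 and 8 were well above background in the same order, with Zbtb46, Xcr1 and Cd209a on none. Their summed levels of 112, 166 and 125 are mostly Siglech (0.65 above untreated on the RA+D3V array and 0.24 on the A2 array). Of 6 measured, 2 were at least 2-fold lower on the A2 array, Ccr7 (-1.70) and Flt3 (-2.28), and 2 on the RA+D3V array, Flt3 (-1.80) and Batf3 (-1.48), beside 6.47% and 5.04% of all genes. Clec9a was at least 7.82-fold higher on the A2 array than on the untreated array.

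Monocyte and macrophage markers had 9, 10 and 10 of 10 genes well above background. Mertk, not well above background untreated, was at least 25.6-fold higher on the A2 array and at least 16.3-fold higher on the RA+D3V array. Of 9 measured, 5 were at least 2-fold higher on the A2 array and 6 on the RA+D3V array, beside 7.92% and 7.82% of all genes. Cd14 was the 1 at least 2-fold lower on each (-1.24 and -1.25), beside 6.47% and 5.04% of all genes. With the value table's control Cd14 was inside 2-fold on both (-0.97 and -0.95), and Ly6c1 was past it on the A2 array (-1.03). The summed levels of 669, 729 and 606 are mostly Ly6c1, with differences of -0.94 on the A2 array and -0.38 on the RA+D3V array. C1qa, C1qb and C1qc, complement genes of macrophages, were 2.98, 3.02 and 3.50 above untreated on the RA+D3V array, where Cd74 was high. They were 0.77, 2.04 and 1.72 above it on the A2 array.

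T and NK cell markers had 7, 5 and 6 of 9 genes well above background, with Cd8a and Klrb1c on none. Their summed levels were 20.03, 14.73 and 19.91, with Nkg7 the largest term (-0.56 on the RA+D3V array, 0.22 on the A2 array). At least 2-fold lower were 3 of 6 measured on the A2 array, Cd3d (-1.86), Cd2 (-1.81) and Gzma (-2.09), and 2 of 5 on the RA+D3V array, Cd3d (-1.55) and Cd2 (-1.89), beside 6.47% and 5.04% of all genes. The part of these cell types in the members' values was not tested.

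Genes of like pattern were sought for H2-Ab1, whose probe had the highest signal, a choice of probe that does not rank the members' RNA. The 5 genes nearest to it, by the Euclidean distance of both differences from untreated, were Mdk, Nedd4l, Snapc1, Rfk and Gm8738, at distances of 0.00568 to 0.0278 on the log2 scale. Over 3 arrays such likeness is common, since 684 of 11571 genes lay within 0.25.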

How the data were processed

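Per the labels' protocols, total RNA was treated with DNase and 50 ng was labelled with Cy3. Per the file headers, Agilent Feature Extraction 11.5.1.1 made the deposited signal intensity, which is corrected for background and spatial trend and not scaled between arrays. The deposited flags and the error of each intensity come from the same software, and probe positions are in mm9. The authors' deposited value table holds intensity on a linear scale. Its columns share 1 distribution, with 99.9% of sorted values equal within 0.01%, and its processing is not given in the sources used here.

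After removal of control spots and 25 probes with an uneven spot, 55657 probes remained. Processed signals were divided by their array's 75th percentile, put on the log2 scale and averaged over a probe's spots. Each gene name was read on its brightest probe. The code of the 2-fold count was tested on simulated data, which does not test the counts on these arrays. Single arrays per condition allow no test, and their number limits the precision. A fold against an array where a gene has no probe well above background is written "at least" and uses the larger of the probe's own signal and the lowest signal well above background there. The treated values against the value table's control use the table's columns whose ranks match each scanner array. For the control comparison, the untreated array was put on the table's distribution. Upstream sequences were aligned with free end gaps. Python 3.11.15, pandas 2.3.3 and limma 3.58.1 (normexp) were used.

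The rule for named genes took all members, list genes past 2-fold with the 3 highest and 3 lowest of each list, Cyp24a1 and Cyp26a1, and the 5 nearest patterns. Names outside that rule, such as marker genes, were picked with their values known. The members and lists were chosen with earlier results of these data known. The alternatives were normexp, other scalings, no filter, the median over probes, other thresholds and the value table.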

Additional observations from a re-analysis of the deposited data

How the results depend on the processing

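The members' counts at 2-fold were 0 higher and 4 lower on the A2 array, 1 and 1 on the RA+D3V array, and 0 and 3 between the treated arrays. They were the same with quantile normalization, scaling to the median of detected probes and the median over probes. With no filter on dim probes they differed by the addition of Ciita, to 5 lower on the A2 array and 4 lower between the treated arrays. The shares of all genes were then 7.61% and 8.46%. Without the filter the median of all genes on the RA+D3V array moved to 0.19 and between the treated arrays to -0.18. With normexp the lower counts were 2, 0 and 1. At 1.5-fold, 2 were lower on the RA+D3V array, beside 15.5% of all genes. H2-Eb1 was then also past the line on the A2 array (-0.78), beside 17.0% lower. H2-DMa was past it between the treated arrays (-0.74), beside 11.2% lower. At 3-fold, 2 were lower on the A2 array, 0 higher on the RA+D3V array and 1 lower between the treated arrays. The shares of all genes were 1.94%, 2.57% and 1.16% in that order. The value table with its own labels gave 1 higher and 0 lower for A2, 0 higher and 2 lower for RA plus D3V, and 3 higher and 0 lower between them. In that order, the shares of all genes were 6.90% and 5.45%, 7.46% and 6.86%, and 3.47% and 3.65%. Cd74 then differed by -0.26 for RA plus D3V and by 2.0 between the treated columns, Cd83 by 1.21 and Cd86 by 1.12 there, and H2-DMb2 by 0.10 for A2 and 0.27 for RA plus D3V. With its treated columns exchanged it gave 2 lower for A2 and 0 lower for RA plus D3V, and H2-DMb2 differed by 0.27 and 0.10. Of 27 member differences, 25 stayed within the SD between control sources under that setting, 22 under normexp, 27 under each other scaling and 25 with the median over probes, where H2-DMb1 took in its undetected probe. With normexp 721 genes passed 2-fold downwards on the A2 array, in place of 1119. On the RA+D3V array 746 and 531 passed upwards and downwards in place of 1352 and 872, and between the treated arrays 333 downwards in place of 714. The 8 antigen processing genes higher on the A2 array were 4 at 3-fold and 4 under the value table's own labels, and 8 under the other alternatives, which were run on the lists after the data had been seen. The cause of these changes was not tested. The value table was read with its own labels and with its treated columns exchanged, while normexp was run with 1 offset only. No paired analysis was possible because each condition has 1 array. Probes near background, such as those of H2-DMb2, Ciita and Cd86, limit what the signal can show.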
